A study of Mus musculus with 24 samples.

Results

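Celecoxib, a painkiller selective for the inducible cyclooxygenase encoded by Ptgs2, was given in the food and the thoracic aorta was compared with that of mice on the same chow without the drug. The comparison took the 8 celecoxib libraries and the 8 control libraries, 16 of the 24 in the series, and every gene with enough counts. All mice were wildtype C57BL/6 adult males aged 10 to 12 weeks. Treated mice ate celecoxib at 100 mg/kg/day for 3 weeks, control mice ate chow with no added drug over the same time, and aortas were taken at zeitgeber time 11. The remaining 8 libraries, from mice on rofecoxib at 50 mg/kg/day, helped to estimate the spread between libraries and are otherwise given only as values beside those of celecoxib. The submitters describe 8 biological replicates per condition, but since no label ties a library to an animal, p-values measure the spread between these samples. Serial numbers in the sample titles keep the controls separate from the treated libraries, and any batch they might mark cannot be told apart from the treatment.

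The wall of the thoracic aorta is mostly smooth muscle, with a lining of endothelium and an outer coat that holds fibroblasts, nerves and fat. Cyclooxygenases make the precursor of prostaglandins, prostacyclin and thromboxane, and these lipids act on smooth muscle tone, platelets and inflammation. Blocking the inducible enzyme removes part of that supply, which is how the drug relieves pain and inflammation.

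Tissue identity followed the label. Smooth muscle markers such as Myh11 and Tagln summed to 49931 to 59235 CPM (counts relative to library size, scaled by TMM factors) with celecoxib and to 40164 to 55604 CPM in controls. Fibroblast markers summed to 6522 to 8963 CPM with celecoxib and 6271 to 8651 CPM in controls, and endothelial markers to 828 to 1194 CPM and 742 to 1025 CPM. Library totals were all but equal, from 21652432 to 21678616 counts. Control 6 stood apart: its brown adipocyte markers summed to 1662 CPM against 175 to 549 CPM in the other controls and 110.0 to 543 CPM with celecoxib, and its Schwann cell markers to 712 CPM against 295 to 409 CPM in the other controls. Celecoxib 7 held 782 CPM of the Schwann cell markers, against at most 438 CPM in the other celecoxib libraries. Neuron markers summed to 383 CPM in celecoxib 7, 286 CPM in celecoxib 3 and 235 CPM in control 6, against 61.8 to 112 CPM in the other 13 libraries, and none of the 8 tested was called. Their median log2 fold change was 1.32 with all libraries and 3.20 without control 6. In bulk tissue, fewer cells of a type and less RNA per cell cannot be told apart.

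Genes called higher with celecoxib included the transcription regulators Maff and Mxd4, the kinase gene Map3k6, the muscle protein gene Csrp1 and the cytokine gene Il17b. Genes called lower included Igfbp5, which encodes a binding protein of growth factors, the chemokine gene Cxcl12, the potassium channel gene Kcns3 and the oxidase gene Ddo. The grouping of named genes by role was made after their values were seen and is no test of a theme. By the quasi-likelihood test of edgeR, 204 of 14451 genes (1.41%) passed an adjusted p under 0.05 and are called, 132 higher (0.913%) and 72 lower (0.498%). Changes were small: the median absolute log2 fold change of the called genes was 0.34, 33 of them passed 1.5-fold and 4 passed 2-fold. The median over all genes tested was -0.01 on the log2 scale. Without control 6, 264 of 14488 genes were called (1.82%), 134 higher (0.925%) and 130 lower (0.897%). Both fits shared 166 genes, 100 higher and 66 lower, all with the same sign.

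The number of calls moved with the libraries in the fit. With 1 library left out it ran from 42 without celecoxib 5 to 312 without celecoxib 2, and 38 genes (0.263% of those tested), 26 higher (0.18%) and 12 lower (0.083%), were called in every one of the 24 such fits. Of these 38 genes, 32 were also called in all 23 fits that left out control 6 and 1 further library. For 124 of the 204 called genes the adjusted p was highest without celecoxib 5, and for 57 without celecoxib 4. The fit on the 16 celecoxib and control libraries alone called 88 genes, 63 higher and 25 lower. Of the 79 genes named here that were called with all libraries, 38 were also called in that fit and 41 were not. The 2 groups did not overlap for 23 genes called higher and 11 called lower. Over all genes tested, called or not, 28 (0.194%) had all celecoxib libraries above all controls and 15 (0.104%) had them all below.

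**Figure D1:**
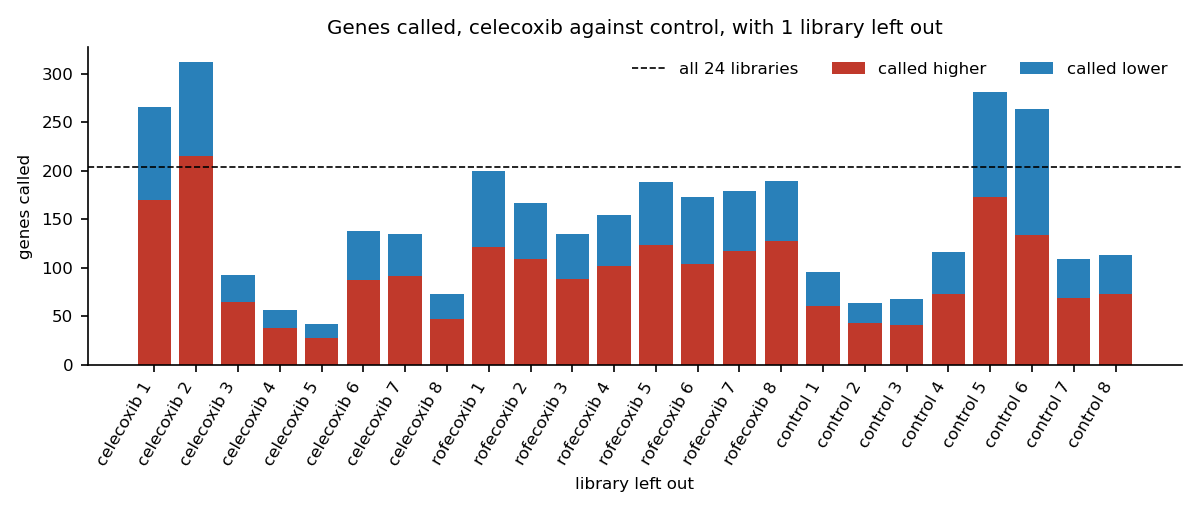
Number of genes called for celecoxib against control (vertical axis) when each of the 24 libraries on the horizontal axis was left out in turn, with calls higher in red and calls lower in blue. The dashed line marks the 204 genes called with all 24 libraries, and the lowest bar is the 42 genes called without celecoxib 5.

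Some of the genes called higher encode regulators of transcription. Maff encodes a small Maf protein, which binds DNA as a partner of larger leucine zipper factors and has no activation domain of its own (ENSMUSG00000042622, mm9 chromosome 15 from 79177769 to 79189704). Its level ran from 30.8 to 47.8 CPM (median 41.4) with celecoxib and from 26.5 to 32.3 CPM (median 30.1) in controls. In 7 of 8 celecoxib libraries it lay above the highest control, and only celecoxib 1 fell within the control range. Maff rose by a log2 fold change of 0.42 ± 0.07 (edgeR adjusted p = 0.0101), and by 0.39 ± 0.07 without control 6 (edgeR adjusted p = 0.0111). Its relative Mafk ran from 122 to 161 CPM (median 139.9) against 103 to 128 CPM (median 116), with 5 of 8 celecoxib libraries above every control. Mafk was called with all libraries (log2 fold change 0.26 ± 0.06, edgeR adjusted p = 0.0391) but not without control 6 (0.24 ± 0.06 with adjusted p = 0.0537), and it failed in 11 of the 24 fits that dropped 1 library, with the highest adjusted p = 0.111 without celecoxib 4.

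Mxd4 encodes a Max partner that represses Myc target genes (ENSMUSG00000037235, mm9 chromosome 5 from 34516334 to 34530571). Mxd4 ran from 262 to 314 CPM (median 287) with celecoxib and from 216 to 260.4 CPM (median 237) in controls. The groups did not overlap, with every celecoxib library above every control (log2 fold change 0.28 ± 0.05, edgeR adjusted p = 0.0101, and 0.27 ± 0.05 with adjusted p = 0.0111 without control 6). Irf2bp2, a transcriptional corepressor, ran from 78.9 to 96.4 CPM (median 85.1) against 65.3 to 76.4 CPM (median 70.4). Here too the groups did not overlap (log2 fold change 0.30 ± 0.05, edgeR adjusted p = 0.0105, and 0.30 ± 0.06 with adjusted p = 0.0115 without control 6). Rbm38, an RNA-binding protein that steadies some transcripts, ran from 10.7 to 17.6 CPM (median 15.2) against 9.69 to 13.0 CPM (median 11.1), and celecoxib 1 was the exception among 8 libraries that otherwise lay above the controls. Rbm38 rose by 0.39 ± 0.08 (edgeR adjusted p = 0.0178, and 0.42 ± 0.08 with adjusted p = 0.0111 without control 6). Maff, Mxd4, Irf2bp2 and Rbm38 were called in all 24 fits that left out 1 library. In the fit on the celecoxib and control libraries alone, Rbm38 was not called (edgeR adjusted p = 0.0506), while the others were.

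Stretches upstream of 2 of these genes are shown because each holds a short motif of a known class of factors, which stands in capitals. The sequences are RefSeq's on GRCm38.p6, on the strand of the gene. The cyclic AMP response element (TGACGTCA) before Maff spans 29 to 22 bases before the start, within the printed stretch at chr15:79347441-79347519. The E-box (CACGTG) before Mxd4 spans 219 to 214 bases before the start, within the printed stretch at chr5:34187874-34187960.
Maff: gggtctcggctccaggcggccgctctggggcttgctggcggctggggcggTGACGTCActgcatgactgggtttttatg
Mxd4: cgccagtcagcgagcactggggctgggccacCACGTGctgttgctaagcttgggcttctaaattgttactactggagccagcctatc
The first 250 bases before the start were searched on both strands for 102 genes called higher, 55 called lower and 10935 genes tested that RefSeq matched by symbol. TGACGTCA was found in 6 of the 102 (5.88%), 2 of the 55 (3.64%) and 2.96% of all searched. CACGTG was found in 12 of the 102 (11.8%), 11 of the 55 (20%) and 9.68% of all. The AP-1 site TGANTCA was found in 11 of the 102 (10.8%), 2 of the 55 (3.64%) and 5.62% of all. The antioxidant response element TGACNNNGC was found in 21.6%, 18.2% and 14.1%. These shares are descriptions without a test, and a match is not a bound site.

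Other genes called higher act in signalling, cell survival and translation. In the lists nearest to them, 1 of 24 NF-kappaB genes (median 0.00) and none of 21 p53 target genes were called. Over all genes tested 1.41% were called, and lists this short cannot show whether their share differs from that. Map3k6 encodes a stress-activated kinase (ENSMUSG00000028862, mm9 chromosome 4 from 132796531 to 132809046), and it ran from 60.3 to 96.4 CPM (median 75.7) with celecoxib against 37.9 to 63.4 CPM (median 48.5) in controls. Of 8 celecoxib libraries 7 lay above the highest control (log2 fold change 0.66 ± 0.12, edgeR adjusted p = 0.0101, and 0.67 ± 0.12 with adjusted p = 0.0111 without control 6). Bcl2l1, which encodes the survival protein Bcl-x, ran from 111 to 157 CPM (median 135) against 70.0 to 113 CPM (median 92.1). Again 7 of 8 lay above every control, with a log2 fold change of 0.52 ± 0.11 (edgeR adjusted p = 0.0223), and the call was lost in 1 of 24 fits (adjusted p = 0.0591 without celecoxib 5). Birc2, an inhibitor of apoptosis in NF-kB signalling, was at 0.26 ± 0.06, edgeR adjusted p = 0.039 with all libraries and at 0.23 ± 0.06 with adjusted p = 0.0535 without control 6, so its call depended on that library, and it was lost in 12 of 24 fits in all (highest adjusted p = 0.105 without celecoxib 5). Anapc16, a subunit of the anaphase-promoting complex, ran from 37.8 to 49.5 CPM (median 46.6) against 30.3 to 39.3 CPM (median 35.6) and was called in all 24 fits (log2 fold change 0.33 ± 0.06, edgeR adjusted p = 0.0105). Eef2k, the kinase that slows translation elongation, was at 0.35 ± 0.08, edgeR adjusted p = 0.0281, with its call lost in 5 of 24 fits (highest adjusted p = 0.077 without celecoxib 5).

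Proteins of the muscle cytoskeleton and membrane are encoded by some of the other genes called higher. Csrp1 encodes a LIM-domain protein abundant in smooth muscle (ENSMUSG00000026421, mm9 chromosome 1 from 137616436 to 137649011). It ran from 2186 to 3055 CPM (median 2508) with celecoxib and from 1844 to 2203 CPM (median 2014) in controls. 7 of 8 celecoxib libraries lay above every control, celecoxib 1 being the lowest (log2 fold change 0.36 ± 0.07, edgeR adjusted p = 0.0151, and 0.34 ± 0.07 with adjusted p = 0.0195 without control 6). Chrnb1, the beta subunit of the muscle acetylcholine receptor, ran from 16.8 to 21.1 CPM (median 18.8) against 13.3 to 16.1 CPM (median 15.3), without overlap (log2 fold change 0.33 ± 0.06, edgeR adjusted p = 0.0109). Csrp1 and Chrnb1 were called in all 24 fits with 1 library left out.

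Myom1 encodes myomesin, which links thick filaments in striated muscle. Its level ran from 1066 to 1659 CPM (median 1284) against 915 to 1115 CPM (median 1012), and 7 of 8 celecoxib libraries lay above every control. Myom1 was called (log2 fold change 0.41 ± 0.09, edgeR adjusted p = 0.0242, and 0.40 ± 0.09 with adjusted p = 0.0304 without control 6), but not in 4 of 24 fits with 1 library left out (highest adjusted p = 0.0705 without celecoxib 5). Mcam, an adhesion molecule of vascular cells, ran from 1323 to 1718 CPM (median 1555) against 1066 to 1373 CPM (median 1225) (log2 fold change 0.34 ± 0.07, edgeR adjusted p = 0.02), and missed the call in 2 of 24 fits (highest adjusted p = 0.0588 without celecoxib 5). The upstream stretch of Myom1, at chr17:71019408-71019517, is shown for its CArG box, the motif of serum response factor in muscle genes. The box, in capitals, spans 99 to 90 bases before the start.
Myom1: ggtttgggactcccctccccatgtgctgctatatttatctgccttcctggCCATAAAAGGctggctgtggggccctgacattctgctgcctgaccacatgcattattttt
A CArG box was found before 3 of the 102 genes called higher (Fbxl22, Meg3 and Myom1), none of the 55 called lower and 1.44% of all searched. Fbxl22, an F-box protein of the muscle Z-disc, was called with all libraries (log2 fold change 0.39 ± 0.09, edgeR adjusted p = 0.0382) and lay at 0.36 ± 0.10 with adjusted p = 0.0501 without control 6, with the call lost in 13 of 24 fits (highest adjusted p = 0.0935 without celecoxib 5).

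Tropomyosins lie along actin filaments. Of 5 tested genes with a symbol starting with Tpm, 3 were called, all higher, and the median log2 fold change of the 5 was 0.23. Whether each of the 5 encodes a tropomyosin was not checked. This family, like the solute carriers, syntaxins and annexins given further on, was picked because it held calls, so its count is a description, beside 1.41% called over all genes tested. Tpm4 ran from 279 to 344 CPM (median 303) against 241 to 272 CPM (median 259). The groups did not overlap (log2 fold change 0.23 ± 0.05, edgeR adjusted p = 0.029), yet the call was lost in 7 of 24 fits (highest adjusted p = 0.0917 without celecoxib 4). Tpm2 ran from 2468 to 3448 CPM (median 2973) against 2185 to 2718 CPM (median 2421), was called with all libraries (log2 fold change 0.30 ± 0.08, edgeR adjusted p = 0.0464) and was not without control 6 (0.29 ± 0.08 with adjusted p = 0.0543), nor in 19 of 24 fits in all (highest adjusted p = 0.123 without celecoxib 4). Tropomyosin transcripts resemble each other, so reads may have been shared between them. Of 36 regulators of the actin cytoskeleton tested, 2 were called higher and none lower, with a median of 0.09 over the list. These were the crosslinker Actn4 (log2 fold change 0.26 ± 0.06, edgeR adjusted p = 0.0374) and Coro1c (log2 fold change 0.28 ± 0.06, edgeR adjusted p = 0.0281), with calls lost in 11 and 7 of 24 fits (highest adjusted p = 0.0824 without celecoxib 3 and adjusted p = 0.0819 without celecoxib 4). The muscle chaperone Hspb7 was at 0.30 ± 0.07, edgeR adjusted p = 0.0426 with all libraries and 0.26 ± 0.07 with adjusted p = 0.0557 without control 6, and lost its call in 17 of 24 fits (highest adjusted p = 0.114 without celecoxib 5).

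The summed smooth muscle markers moved the same way as these genes. They had a mean of 53856 CPM with celecoxib against 47100 CPM in controls and 48091 CPM in the 7 controls other than control 6, and 3 of 8 celecoxib libraries lay above the highest control. Of 14 markers 2 were called higher and none lower, with a median log2 fold change of 0.16. Without control 6 only 1 was called, and the median was 0.13. Skeletal muscle markers summed to 10.6 to 18.4 CPM with celecoxib and 7.94 to 13.1 CPM in controls. Only 3 of the 6 tested were higher, and the median log2 fold change of the 6 was 0.23, or 0.19 without control 6. The 1 called was the troponin Tnnt3 (log2 fold change 0.66 ± 0.16, edgeR adjusted p = 0.0391, lost in 10 of 24 fits, highest adjusted p = 0.0999 without celecoxib 4). Cardiac muscle markers had a mean of 92.9 CPM with celecoxib and 75.8 CPM in controls. They summed to 79.6 to 99.9 CPM with celecoxib, and 7 of 8 of these libraries lay above every control but control 3, which held 104.2 CPM, the highest of all 16. None of the 6 cardiac markers tested was called, and their median log2 fold change was 0.14. The part of cell composition in these changes was not tested.

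**Figure D2:**
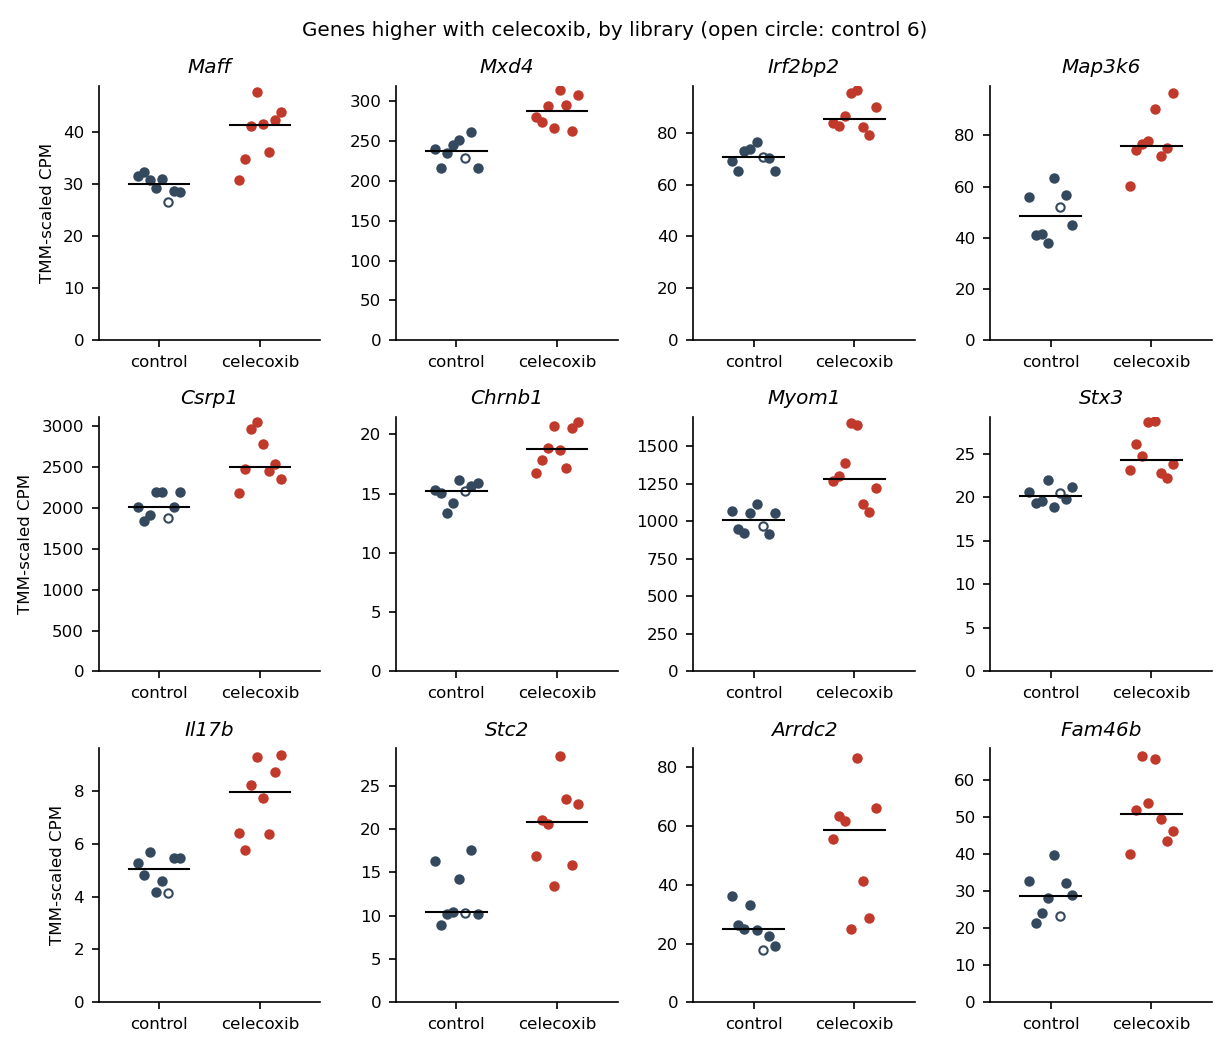
TMM-scaled CPM (vertical axis of each panel, from 0) of 12 genes called higher with celecoxib, with 1 point per library for the 8 controls and the 8 celecoxib libraries and a bar at each group's median. The open circle is control 6. For Mxd4, Irf2bp2, Chrnb1, Stx3, Il17b and Fam46b every celecoxib point lies above every control point.

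Secreted factors were called in both directions. Il17b, a cytokine of the interleukin 17 family (ENSMUSG00000024578, mm9 chromosome 18 from 61847387 to 61852393), ran from 5.77 to 9.35 CPM (median 7.97) with celecoxib and from 4.14 to 5.68 CPM (median 5.05) in controls. The groups did not overlap, and Il17b rose by 0.64 ± 0.12 (edgeR adjusted p = 0.0151, and 0.60 ± 0.13 with adjusted p = 0.0189 without control 6), in all 24 fits with 1 library left out. Stc2, stanniocalcin 2, a secreted glycoprotein induced by stress of the endoplasmic reticulum, ran from 13.5 to 28.4 CPM (median 20.8) against 8.93 to 17.6 CPM (median 10.4). In 5 of 8 celecoxib libraries Stc2 lay above every control (log2 fold change 0.73 ± 0.15, edgeR adjusted p = 0.0223, and 0.69 ± 0.16 with adjusted p = 0.028 without control 6), and its call was lost without celecoxib 5 (edgeR adjusted p = 0.0591). Stc2 was the only called gene of 23 tested in the list of ATF4 targets of amino acid metabolism, whose median was -0.02. Nptx2, a secreted pentraxin, was at 0.63 ± 0.14, edgeR adjusted p = 0.0242 and Nov, a matricellular protein now called Ccn3, at 0.33 ± 0.08, edgeR adjusted p = 0.0391. Their calls were lost in 2 and 12 of 24 fits (highest adjusted p = 0.0637 without celecoxib 4 and adjusted p = 0.0942 without celecoxib 5), and Nov was not called without control 6 (0.32 ± 0.08 with adjusted p = 0.0504).

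Other genes of secreted proteins were called lower. Igfbp5, which binds insulin-like growth factors (ENSMUSG00000026185, mm9 chromosome 1 from 72904304 to 72921660), ran from 637 to 933 CPM (median 791) against 866 to 1251 CPM (median 1046) in controls. Control 6 was the lowest control, and all 8 celecoxib libraries lay below the other 7. Igfbp5 was called lower at a log2 fold change of -0.44 ± 0.09 (edgeR adjusted p = 0.02), and at -0.48 ± 0.09 without control 6 (edgeR adjusted p = 0.0111). Its call was lost in 1 of 24 fits (adjusted p = 0.0529 without celecoxib 5). Angptl2, a secreted angiopoietin-like protein, ran from 165 to 261 CPM (median 207) against 244 to 312 CPM (median 273), with 7 of 8 celecoxib libraries below every control. Angptl2 was called in all 24 fits (log2 fold change -0.41 ± 0.08, edgeR adjusted p = 0.0178, and -0.43 ± 0.09 with adjusted p = 0.0166 without control 6).

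Cxcl12, the chemokine that binds CXCR4, ran from 133 to 194 CPM (median 160.1) against 184 to 257 CPM (median 204). 7 of 8 celecoxib libraries lay below every control (log2 fold change -0.39 ± 0.09, edgeR adjusted p = 0.0316, and -0.41 ± 0.09 with adjusted p = 0.026 without control 6), and the call was lost in 7 of 24 fits (highest adjusted p = 0.0826 without celecoxib 5). Bmp2, a bone morphogenetic protein, ran from 12.3 to 18.2 CPM (median 14.2) against 15.9 to 30.0 CPM (median 21.0) (log2 fold change -0.50 ± 0.12, edgeR adjusted p = 0.0346, and -0.55 ± 0.11 with adjusted p = 0.0189 without control 6). Bmp2 lost its call in 8 of 24 fits (highest adjusted p = 0.0865 without celecoxib 5). Fst, a secreted antagonist of activins and of bone morphogenetic proteins, lay just outside the threshold with all libraries (log2 fold change 0.63 ± 0.16, edgeR adjusted p = 0.0525) and was called higher without control 6 (0.69 ± 0.17 with adjusted p = 0.0376). With all libraries, 1 of 28 genes of the BMP pathway tested was called lower and none higher, and the list's median was 0.14. Dkk3, a secreted glycoprotein of the Dickkopf family, ran from 462 to 578 CPM (median 505) against 475 to 656 CPM (median 617). Control 6 was far below the other controls, and without it the log2 fold change of Dkk3 moved from -0.24 ± 0.06 to -0.29 ± 0.05 (edgeR adjusted p = 0.0347 and 0.00758). The call of Dkk3 was lost in 11 of 24 fits (highest adjusted p = 0.0865 without celecoxib 5).

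The smallest p-values of the comparison were among the genes called lower. D0H4S114, now called Nrep, encodes the small protein P311. It ran from 33.2 to 48.6 CPM (median 43.1) with celecoxib against 55.5 to 77.1 CPM (median 59.0) in controls. Every celecoxib library lay below every control (log2 fold change -0.59 ± 0.09, edgeR adjusted p = 0.0055, and -0.61 ± 0.09 with adjusted p = 0.00758 without control 6). Ccdc85a, a coiled-coil protein, ran from 7.66 to 9.96 CPM (median 9.22) against 11.1 to 14.5 CPM (median 13.3), likewise without overlap (log2 fold change -0.53 ± 0.08, edgeR adjusted p = 0.0055, and -0.52 ± 0.08 with adjusted p = 0.00758 without control 6). C1rl, a protease related to complement C1r, ran from 5.84 to 8.37 CPM (median 7.65) against 8.58 to 12.9 CPM (median 9.55) and did not overlap either (log2 fold change -0.45 ± 0.09, edgeR adjusted p = 0.0151). The upstream stretch of C1rl, at chr6:124492917-124493022, is shown as an example of the 11 genes called lower that hold CACGTG. Its E-box, in capitals, spans 146 to 141 bases before the start.
C1rl: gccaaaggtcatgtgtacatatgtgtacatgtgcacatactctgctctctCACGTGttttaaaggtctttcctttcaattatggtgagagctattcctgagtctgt
Rcbtb2, whose product has RCC1 and BTB domains, ran from 38.9 to 45.0 CPM (median 41.6) against 45.5 to 56.8 CPM (median 51.2) and the groups did not overlap (log2 fold change -0.28 ± 0.05, edgeR adjusted p = 0.0151). 2610018G03Rik, now Stk26, a kinase of the germinal centre kinase family, ran from 11.3 to 15.4 CPM (median 13.5) against 14.5 to 20.4 CPM (median 18.9), with control 6 the only control inside the celecoxib range. Its log2 fold change was -0.43 ± 0.08, and -0.48 ± 0.08 with adjusted p = 0.00775 without control 6. All 5 of these genes were called in each of the 24 fits with 1 library left out.

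**Figure D3:**
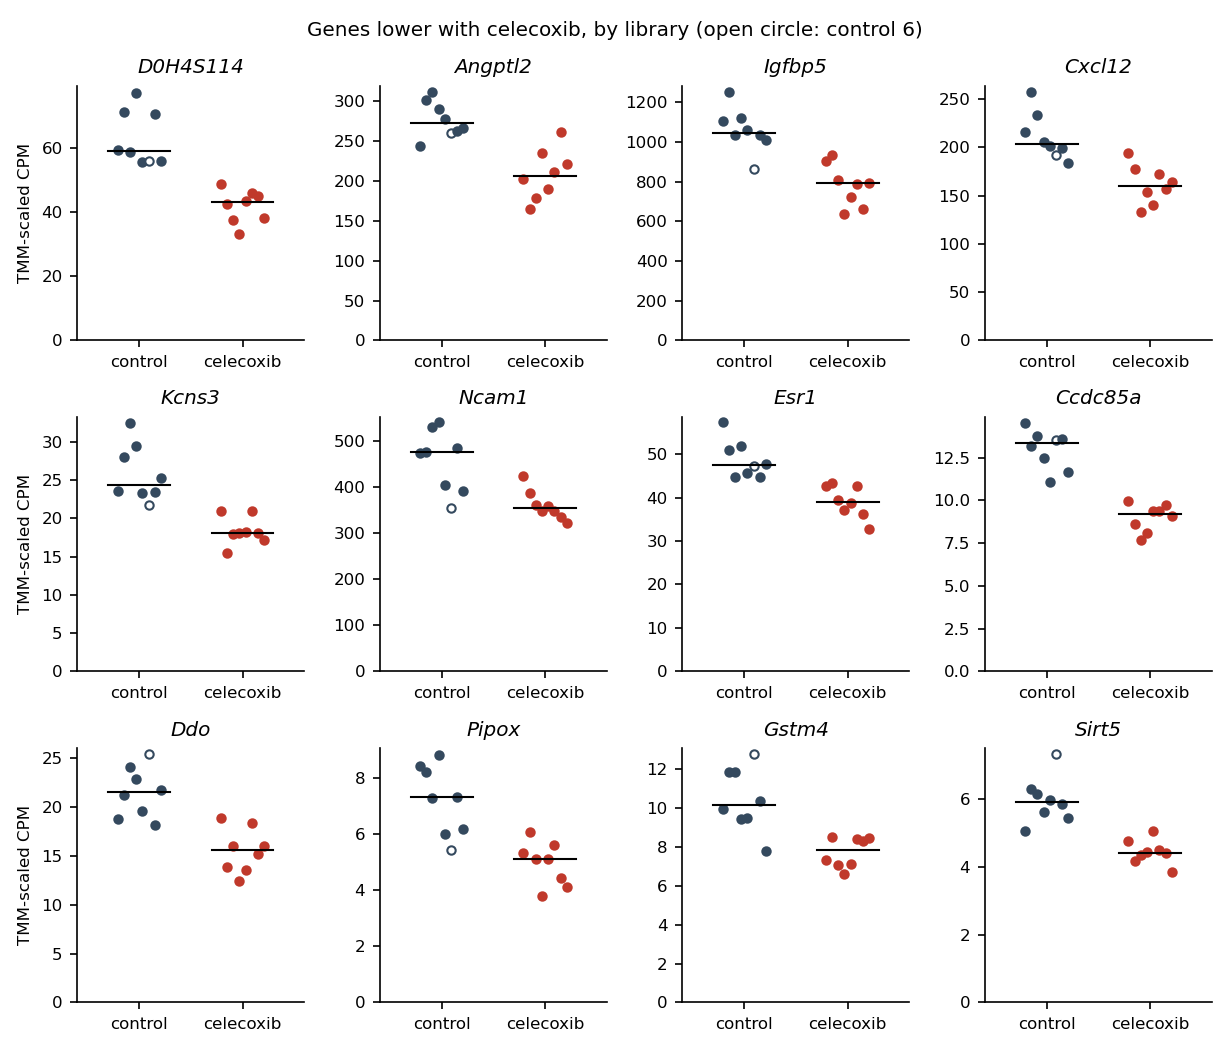
TMM-scaled CPM (vertical axis of each panel, from 0) of 12 genes called lower with celecoxib, with 1 point per library for the 8 controls and the 8 celecoxib libraries and a bar at each group's median. The open circle is control 6, which is the lowest control for Igfbp5, Kcns3, Ncam1 and Pipox and the highest for Ddo, Gstm4 and Sirt5.

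A channel subunit, a nuclear receptor and an adhesion molecule were among the other genes called lower. Kcns3, a modulatory subunit of voltage-gated potassium channels (ENSMUSG00000043673, mm9 chromosome 12 from 11096806 to 11157850), ran from 15.5 to 21.0 CPM (median 18.1) against 21.7 to 32.4 CPM (median 24.4). The groups did not overlap, and Kcns3 fell in all 24 fits (log2 fold change -0.50 ± 0.09, edgeR adjusted p = 0.0101, and -0.53 ± 0.09 with adjusted p = 0.00758 without control 6). Esr1, oestrogen receptor alpha, ran from 32.8 to 43.4 CPM (median 39.1) against 44.7 to 57.3 CPM (median 47.5) without overlap (log2 fold change -0.32 ± 0.07, edgeR adjusted p = 0.0327, lost in 8 of 24 fits, highest adjusted p = 0.077 without celecoxib 5). Esr1 was the only called member of 34 nuclear receptor genes. The adhesion molecule Ncam1 ran from 323 to 425 CPM (median 355) against 356 to 542 CPM (median 476) (log2 fold change -0.34 ± 0.08, edgeR adjusted p = 0.0396, and -0.39 ± 0.08 with adjusted p = 0.0166 without control 6), and its call was lost in 13 of 24 fits (highest adjusted p = 0.094 without control 3). Grb14, an adaptor of the insulin receptor, was at -0.24 ± 0.05, edgeR adjusted p = 0.0208, lost in 1 of 24 fits (adjusted p = 0.0529 without celecoxib 5), and Adcy7, an adenylyl cyclase, at -0.23 ± 0.06, edgeR adjusted p = 0.0441. Adcy7 was lowest of the controls in control 6, below every celecoxib library, and lay at -0.28 ± 0.05 with adjusted p = 0.00775 without it, but lost its call in 18 of the 24 fits (highest adjusted p = 0.105 without control 2).

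A receptor and several carriers were called higher. Adra1b, the alpha-1B adrenergic receptor, ran from 2.69 to 6.63 CPM (median 4.93) against 2.81 to 4.5 CPM (median 3.09). Celecoxib 4 lay below every control while 6 of 8 lay above the highest, so the groups overlapped (log2 fold change 0.64 ± 0.15, edgeR adjusted p = 0.0312, lost in 8 of 24 fits, highest adjusted p = 0.0826 without celecoxib 5). It was the only called gene of 36 vasoactive receptors and ligands. Slc7a3, a carrier of cationic amino acids, was low in all libraries, at 1.31 to 2.18 CPM (median 1.5) against 0.865 to 1.28 CPM (median 1.0), and the groups did not overlap (log2 fold change 0.63 ± 0.13, edgeR adjusted p = 0.0233, lost in 2 of 24 fits, highest adjusted p = 0.0608 without celecoxib 5). Of 242 solute carriers tested, 6 rose and 1 fell (2.89%), with a median of 0.00. They included the zinc carrier Slc39a13 (log2 fold change 0.27 ± 0.06, edgeR adjusted p = 0.0383) and the mitochondrial carriers Slc25a27 (log2 fold change 0.39 ± 0.09, edgeR adjusted p = 0.0273) and Slc25a34 (log2 fold change 0.49 ± 0.12, edgeR adjusted p = 0.037). These lost their calls in 10, 5 and 8 of 24 fits (highest adjusted p = 0.0935 without celecoxib 5, adjusted p = 0.0721 without celecoxib 5 and adjusted p = 0.0877 without celecoxib 5). The zinc-binding metallothionein Mt2 ran from 58.5 to 112 CPM (median 70.4) against 44.6 to 63.2 CPM (median 50.9) (log2 fold change 0.61 ± 0.15, edgeR adjusted p = 0.0428, lost in 14 of 24 fits, highest adjusted p = 0.109 without celecoxib 4).

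Of 14 syntaxins tested, which guide vesicle fusion, 2 were called higher, and the family's median was 0.01. Stx3 ran from 22.2 to 28.7 CPM (median 24.3) against 18.9 to 22.0 CPM (median 20.1), without overlap, and was called in all 24 fits (log2 fold change 0.30 ± 0.05, edgeR adjusted p = 0.0105). Stx5a was at 0.19 ± 0.04, edgeR adjusted p = 0.0312 and lost its call in 9 of 24 fits (highest adjusted p = 0.0826 without celecoxib 5). Of 10 annexins, which bind membranes with calcium, 2 were called higher, with a family median of 0.02. Anxa3 ran from 132 to 219.9 CPM (median 147) against 109 to 125 CPM (median 120.3), with celecoxib 4 the highest and no overlap between groups (log2 fold change 0.36 ± 0.08, edgeR adjusted p = 0.0242, lost in 2 of 24 fits, highest adjusted p = 0.0591 without celecoxib 5). Anxa5 ran from 330.4 to 355 CPM (median 337) against 299 to 333 CPM (median 312), a small difference (log2 fold change 0.13 ± 0.03, edgeR adjusted p = 0.0383, lost in 16 of 24 fits, highest adjusted p = 0.123 without celecoxib 4).

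Outside the genes already described for the series, the largest increases among genes called above an average log2 CPM of 1 were in Arrdc2 and Fam46b. Arrdc2 encodes an arrestin-domain protein (ENSMUSG00000002910, mm9 chromosome 8 from 73358852 to 73363821) and ran from 25.1 to 83.2 CPM (median 58.6) against 18.0 to 36.1 CPM (median 24.8). It spread widely with celecoxib, with 6 of 8 libraries above every control and celecoxib 4 and 7 within the control range. Arrdc2 rose by 1.05 ± 0.22 (edgeR adjusted p = 0.0205, and 0.99 ± 0.22 with adjusted p = 0.028 without control 6), and the call was lost without celecoxib 5 (edgeR adjusted p = 0.0573). Fam46b, now Tent5b, a poly(A) polymerase, ran from 40.2 to 66.4 CPM (median 50.8) against 21.4 to 39.7 CPM (median 28.6). The groups did not overlap and the call held in all 24 fits (log2 fold change 0.85 ± 0.17, edgeR adjusted p = 0.0155, and 0.81 ± 0.17 with adjusted p = 0.0216 without control 6). Fam107a, an actin-binding protein, ran from 65.9 to 100.4 CPM (median 71.4) against 28.3 to 63.4 CPM (median 49.0), without overlap (log2 fold change 0.65 ± 0.15, edgeR adjusted p = 0.0342, lost in 8 of 24 fits, highest adjusted p = 0.0877 without celecoxib 5). Of the other genes with large changes, Plekha7 of the adherens junction (log2 fold change 0.69 ± 0.17, edgeR adjusted p = 0.0428) and Vwa3a (log2 fold change 0.67 ± 0.17, edgeR adjusted p = 0.0477) were called higher. Their calls were lost in 12 and 19 of 24 fits (highest adjusted p = 0.104 without celecoxib 5 and adjusted p = 0.128 without celecoxib 4). The long noncoding RNA Meg3 was at 0.28 ± 0.07, edgeR adjusted p = 0.037, lost in 9 of 24 fits (highest adjusted p = 0.0931 without celecoxib 4).

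Some enzymes that act on drugs and lipids were called higher and others lower. Cyp1b1, a cytochrome P450 of vascular and connective tissue, ran from 72.7 to 122 CPM (median 87.9) against 58.2 to 85.4 CPM (median 68.7) (log2 fold change 0.40 ± 0.09, edgeR adjusted p = 0.0281, and 0.39 ± 0.09 with adjusted p = 0.0363 without control 6). With all libraries Cyp1b1 was the only called member of a list of 21 cytochrome P450 genes, where 2 were called higher without control 6. Of all 25 tested genes of that symbol family 1 was called higher and 1 lower. The call of Cyp1b1 was lost in 5 of 24 fits, highest adjusted p = 0.066 without control 3. Sult1a1, which adds sulphate to phenols, was at 0.48 ± 0.12, edgeR adjusted p = 0.0429, lost in 15 of 24 fits (highest adjusted p = 0.102 without celecoxib 5). Alox12, the lipoxygenase of platelets and skin, ran from 4.49 to 5.75 CPM (median 5.12) against 5.56 to 14.4 CPM (median 6.91) and was called lower (log2 fold change -0.68 ± 0.17, edgeR adjusted p = 0.0426, lost in 13 of 24 fits, highest adjusted p = 0.0948 without celecoxib 5). Red cell and platelet markers summed to 100.4 to 585 CPM (median 201) with celecoxib and 110.5 to 591 CPM (median 316) in controls. All 9 tested were lower and none was called. The median log2 fold change of these markers was -0.50, or -0.46 without control 6, and their part in Alox12 was not tested. Of 21 genes of eicosanoid metabolism outside cyclooxygenase tested, Cyp1b1 was called higher and Alox12 lower. The list's median was -0.12, and -0.13 without control 6.

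Among the genes called lower were some that encode peroxisomal and other oxidative enzymes, chosen from the called genes and not counted as a class. Ddo, the D-aspartate oxidase of peroxisomes (ENSMUSG00000063428, mm9 chromosome 10 from 40349615 to 40401855), ran from 12.5 to 18.9 CPM (median 15.6) with celecoxib and from 18.1 to 25.4 CPM (median 21.5) in controls. 6 of 8 celecoxib libraries lay below every control, and Ddo fell in all 24 fits (log2 fold change -0.47 ± 0.08, edgeR adjusted p = 0.0101, and -0.43 ± 0.08 with adjusted p = 0.0111 without control 6). Pipox, a peroxisomal oxidase of sarcosine and pipecolic acid, ran from 3.8 to 6.05 CPM (median 5.1) against 5.41 to 8.8 CPM (median 7.3) and was called in all 24 fits (log2 fold change -0.54 ± 0.11, edgeR adjusted p = 0.0188, and -0.59 ± 0.11 with adjusted p = 0.00973 without control 6). The peroxisomal protease Lonp2 ran from 71.0 to 82.3 CPM (median 75.5) against 79.0 to 100.4 CPM (median 84.5) (log2 fold change -0.18 ± 0.04, edgeR adjusted p = 0.0391, lost in 9 of 24 fits, highest adjusted p = 0.0917 without celecoxib 4). The upstream stretch of Ddo is printed to set its E-box, in capitals, beside that of C1rl. The E-box of Ddo spans 127 to 122 bases before the start, within the printed stretch at chr10:40629834-40629939.
Ddo: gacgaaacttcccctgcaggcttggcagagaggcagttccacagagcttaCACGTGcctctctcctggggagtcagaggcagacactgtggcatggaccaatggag
Gstm4, a glutathione S-transferase, ran from 6.59 to 8.5 CPM (median 7.84) against 7.8 to 12.8 CPM (median 10.2) and was called in all 24 fits (log2 fold change -0.43 ± 0.09, edgeR adjusted p = 0.0198), though reads may be shared with near-identical genes of its cluster. It was the only called gene of 22 glutathione and glucuronyl transferases, whose median of -0.13 moved to -0.05 without control 6.

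Sirt5, which removes succinyl groups from mitochondrial proteins, ran from 3.83 to 5.06 CPM (median 4.41) against 5.05 to 7.32 CPM (median 5.9). 7 of 8 celecoxib libraries lay below every control (log2 fold change -0.42 ± 0.09, edgeR adjusted p = 0.0246, lost in 2 of 24 fits, highest adjusted p = 0.0541 without celecoxib 8). The quinone reductase Nqo2 was at -0.22 ± 0.05, edgeR adjusted p = 0.0374 and the aldehyde oxidase Aox1 at -0.35 ± 0.09, edgeR adjusted p = 0.0429, with calls lost in 9 and 14 of 24 fits (highest adjusted p = 0.0782 without control 2 and adjusted p = 0.0939 without control 2). Entpd4, a nucleotidase of the Golgi and lysosomes, ran from 51.9 to 66.1 CPM (median 56.9) against 63.7 to 99.5 CPM (median 69.2), with control 6 far above the rest. It stayed called without that library (log2 fold change -0.34 ± 0.07, edgeR adjusted p = 0.0178, and -0.27 ± 0.05 with adjusted p = 0.00973 without control 6), but its identifier belongs to Entpd4b in GENCODE M21 and a near-identical copy may share its reads. Mthfd1, a cytosolic enzyme of folate metabolism, ran from 23.3 to 28.5 CPM (median 26.4) against 27.1 to 33.1 CPM (median 31.1) (log2 fold change -0.22 ± 0.05, edgeR adjusted p = 0.039, lost in 10 of 24 fits, highest adjusted p = 0.0935 without celecoxib 5).

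Of the chromatin remodellers, 1 gene was called lower and 1 higher. The ATPase Smarca2 ran from 167 to 202 CPM (median 179.6) against 171 to 245 CPM (median 220.0), with control 6 lowest of the controls. Smarca2 moved from -0.25 ± 0.06 (edgeR adjusted p = 0.0374) to -0.30 ± 0.05 with adjusted p = 0.00821 without control 6, and lost its call in 12 of 24 fits (highest adjusted p = 0.0826 without celecoxib 5). The subunit Smarcd3 ran from 198 to 296 CPM (median 245) against 169 to 245 CPM (median 188) and was called higher (log2 fold change 0.32 ± 0.08, edgeR adjusted p = 0.0475, lost in 19 of 24 fits, highest adjusted p = 0.119 without celecoxib 5). With all libraries these were the only called genes of 44 in their list, whose median was 0.00. Without control 6 the list held 1 gene called higher and 2 called lower.

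Dbndd2, a protein with a dysbindin domain (ENSMUSG00000017734, mm9 chromosome 2 from 164311404 to 164319021), had the smallest p among the genes called higher outside those already described for the series. It ran from 16.7 to 19.5 CPM (median 17.8) against 12.3 to 17.6 CPM (median 14.3), with 6 of 8 celecoxib libraries above every control, and was called in all 24 fits (log2 fold change 0.34 ± 0.06, edgeR adjusted p = 0.0101, and 0.34 ± 0.06 with adjusted p = 0.00973 without control 6). Galntl2, now Galnt15, which starts sugar chains on proteins, ran from 115 to 179 CPM (median 139) against 82.4 to 132 CPM (median 96.6) and was also called in all 24 fits (log2 fold change 0.50 ± 0.10, edgeR adjusted p = 0.0155). Otud1, a deubiquitinase, ran from 40.1 to 71.0 CPM (median 55.7) against 59.6 to 140.1 CPM (median 81.6) and was called lower (log2 fold change -0.65 ± 0.16, edgeR adjusted p = 0.0428), as was the secreted Lrrc17, at 118 to 178 CPM (median 131) against 127 to 252 CPM (median 189.7) (log2 fold change -0.51 ± 0.12, edgeR adjusted p = 0.0414). Their calls were lost in 15 and 14 of 24 fits (highest adjusted p = 0.107 without celecoxib 5 and adjusted p = 0.0966 without celecoxib 5).

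Control 6 changed which genes passed. Leaving it out removed 38 calls, 32 higher and 6 lower, and added 98, 34 higher and 64 lower. All of these genes kept their sign, but the fits share every other library, so this is no test. Among genes called with all libraries only Fasn, Scd1 and Me1 moved by over 1.5 times in log2 fold change. The fold changes of Acly and Acss2, given below and called only without control 6, shrank too. Calls lost with it, beside Mafk, Birc2, Fbxl22 and Tpm2, included the fatty acid enzyme Ptpla, now Hacd1 (log2 fold change 0.26 ± 0.06, edgeR adjusted p = 0.039, and 0.24 ± 0.07 with adjusted p = 0.0523 without control 6) and the tRNA methyltransferase Trmt2b (log2 fold change -0.20 ± 0.05, edgeR adjusted p = 0.0391, and -0.18 ± 0.05 with adjusted p = 0.0507 without control 6). With 1 library left out they lost their calls in 12 and 10 of 24 fits (highest adjusted p = 0.103 without celecoxib 5 and adjusted p = 0.0942 without celecoxib 5). Without control 6 each of these 6 lay just above the threshold.

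Several calls gained without control 6 were of genes low in that library. Abat, the enzyme that degrades GABA, ran from 20.6 to 25.2 CPM (median 23.6) against 18.1 to 36.0 CPM (median 30.6), with control 6 the lowest library of the 16. It moved from -0.33 ± 0.10 (edgeR adjusted p = 0.0897) to -0.41 ± 0.08 with adjusted p = 0.0111. The adhesion molecule Alcam moved from -0.37 ± 0.10 (edgeR adjusted p = 0.0687) to -0.43 ± 0.09 with adjusted p = 0.0189, and Mastl, a mitotic kinase that none of the 16 libraries held above 1.51 CPM, from -0.56 ± 0.16 (edgeR adjusted p = 0.0687) to -0.66 ± 0.13 with adjusted p = 0.0163. Of 25 cadherins and protocadherins tested none was called with all libraries. Without control 6, 2 were called lower, Pcdh7 (-0.35 ± 0.09 with edgeR adjusted p = 0.0416) and Fat4 (-0.30 ± 0.07 with edgeR adjusted p = 0.0383). The netrin receptor Unc5c, the only called member of 38 axon guidance genes, was called lower without control 6 (-0.56 ± 0.13 with adjusted p = 0.0304). Ogdhl, related to a citrate cycle enzyme, was under 1.5 CPM in every one of the 16 libraries, with control 6 at 0.819 CPM against at most 0.414 CPM in the other controls. It moved from 1.18 ± 0.33 (edgeR adjusted p = 0.0696) to 1.55 ± 0.31 with adjusted p = 0.0145.

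Acly and Acss2, which encode enzymes that supply acetyl-CoA for lipid synthesis, were high in control 6. Acly ran from 116 to 158 CPM (median 126) with celecoxib and from 129.6 to 536 CPM (median 172) in controls, where the 7 others reached 222 CPM. Its fold change shrank from -0.73 ± 0.21 to -0.38 ± 0.10 without control 6 while the adjusted p went from 0.0816 to 0.0413 in edgeR. Acss2 moved likewise from -0.79 ± 0.21 to -0.49 ± 0.13, with adjusted p of 0.0541 and 0.0422. White and general adipocyte markers summed to 5370.3 CPM in control 6, 664 to 2909 CPM in the other controls and 891 to 2225 CPM with celecoxib. The part of fat in the aortas was not tested.

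**Figure D4:**
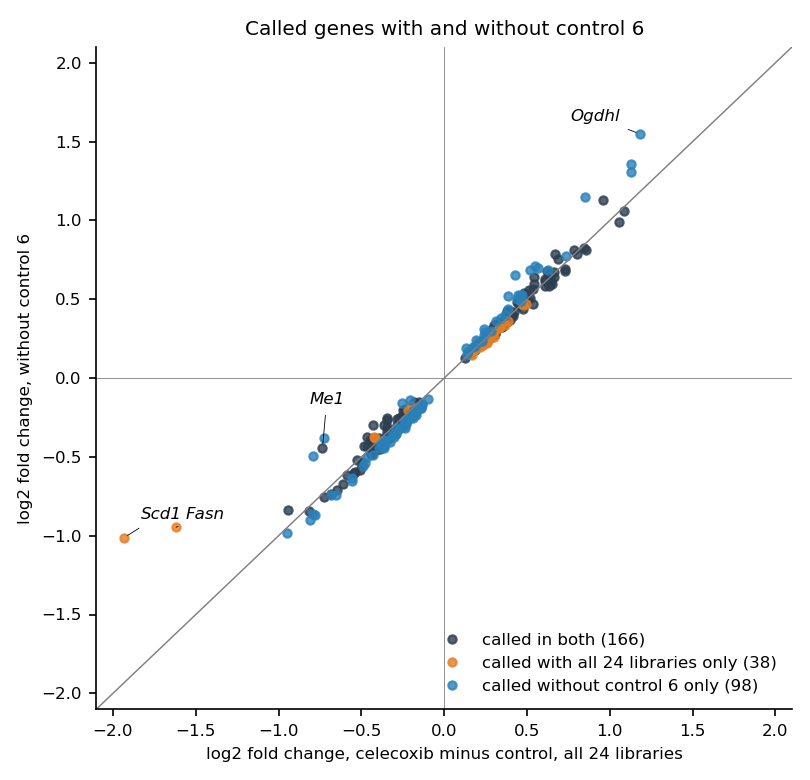
Log2 fold change of celecoxib against control with all 24 libraries (horizontal axis) and without control 6 (vertical axis), 1 point per gene called in either fit. Most points lie near the diagonal, while Fasn, Scd1 and Me1 lie closer to 0 without control 6 and Ogdhl lies farther from it.

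Over 55 lists of pathway genes, few members were called. Of 1522 genes in them that were tested 23 were called (1.51%), against 1.41% of all genes tested. No list had more than 2 called members, 4 had 2, 16 had 1 and 35 had none. Medians ran from -0.38 to 0.14, against -0.01 over all genes, and 11 lay beyond 0.1 in size, or 6 without control 6, when the range narrowed to -0.14 to 0.14.

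Several lists held a single call. Tinagl1 rose among 29 basement membrane genes (log2 fold change 0.34 ± 0.09, edgeR adjusted p = 0.0431), Rpa2 among 32 genes of DNA repair and replication licensing (log2 fold change 0.21 ± 0.05, edgeR adjusted p = 0.0449), and the coat protein Copg2 fell among 28 genes of vesicle transport (log2 fold change -0.22 ± 0.05, edgeR adjusted p = 0.042). Their calls were lost in 15, 18 and 16 of 24 fits (highest adjusted p = 0.115 without celecoxib 4, adjusted p = 0.0966 without celecoxib 5 and adjusted p = 0.0966 without celecoxib 5). Without control 6 Rpa2 was not called (0.20 ± 0.05 with adjusted p = 0.059). Mrps6 was the only call among 38 mitochondrial ribosomal proteins and came only without control 6 (0.31 ± 0.07 with adjusted p = 0.0216, against log2 fold change 0.24 ± 0.08, edgeR adjusted p = 0.125 with all libraries).

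The lowest medians went with control 6. Among 20 lipolysis and lipid droplet genes the median moved from -0.38 to -0.06 without it. The lipid droplet proteins Plin2 and Plin4, the genes of that list with the smallest p, lay at -0.70 ± 0.23, edgeR adjusted p = 0.121 and 0.17 ± 0.06, edgeR adjusted p = 0.155 and neither was called. Plin2 moved to -0.40 ± 0.16 without control 6. The 25 genes of the citrate cycle moved from -0.29 to -0.10, with no call, Suclg2 being at -0.14 ± 0.05, edgeR adjusted p = 0.115 and Idh1 at -0.28 ± 0.10, edgeR adjusted p = 0.144, or -0.18 ± 0.07 without control 6. Carbonic anhydrases moved from -0.11 to 0.00 over 11 genes, where Car9 lay at 0.53 ± 0.14, edgeR adjusted p = 0.0597 and Car13 at -0.51 ± 0.31, edgeR adjusted p = 0.403, or -0.12 ± 0.24 without control 6. Some medians hardly moved. They included those of the 28 BMP pathway genes (0.14 and 0.13 without control 6) and 27 Hox genes (0.13 and 0.14). The same held for 35 interferon-stimulated genes (0.08 and 0.09) and 20 antigen presentation genes (-0.11 both times). It also held for 32 genes of DNA repair and replication licensing (-0.13 and -0.14) and 21 eicosanoid genes outside cyclooxygenase (-0.12 and -0.13).

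Clock genes bear on tissue taken at a single time of day. None of 22 tested was called and their median was 0.01. Nr1d1, a repressor of the clock, ran from 195 to 324 CPM (median 267) against 159 to 312 CPM (median 208) (log2 fold change 0.33 ± 0.13, edgeR adjusted p = 0.184). Hlf, a clock output factor, ran from 93.7 to 117 CPM (median 99.7) against 89.7 to 148 CPM (median 123) (log2 fold change -0.24 ± 0.09, edgeR adjusted p = 0.185). No member was called, either, among 38 autophagy and lysosome genes, 31 proteasome subunits, 39 splicing factors, 22 integrin subunits, 34 calcium channel and calcium store genes or 21 p53 target genes. Ryr2, a calcium release channel of that calcium list, ran from 45.9 to 73.0 CPM (median 61.0) against 44.4 to 52.1 CPM (median 48.6) and did not pass (log2 fold change 0.35 ± 0.10, edgeR adjusted p = 0.0879).

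**Figure D5:**
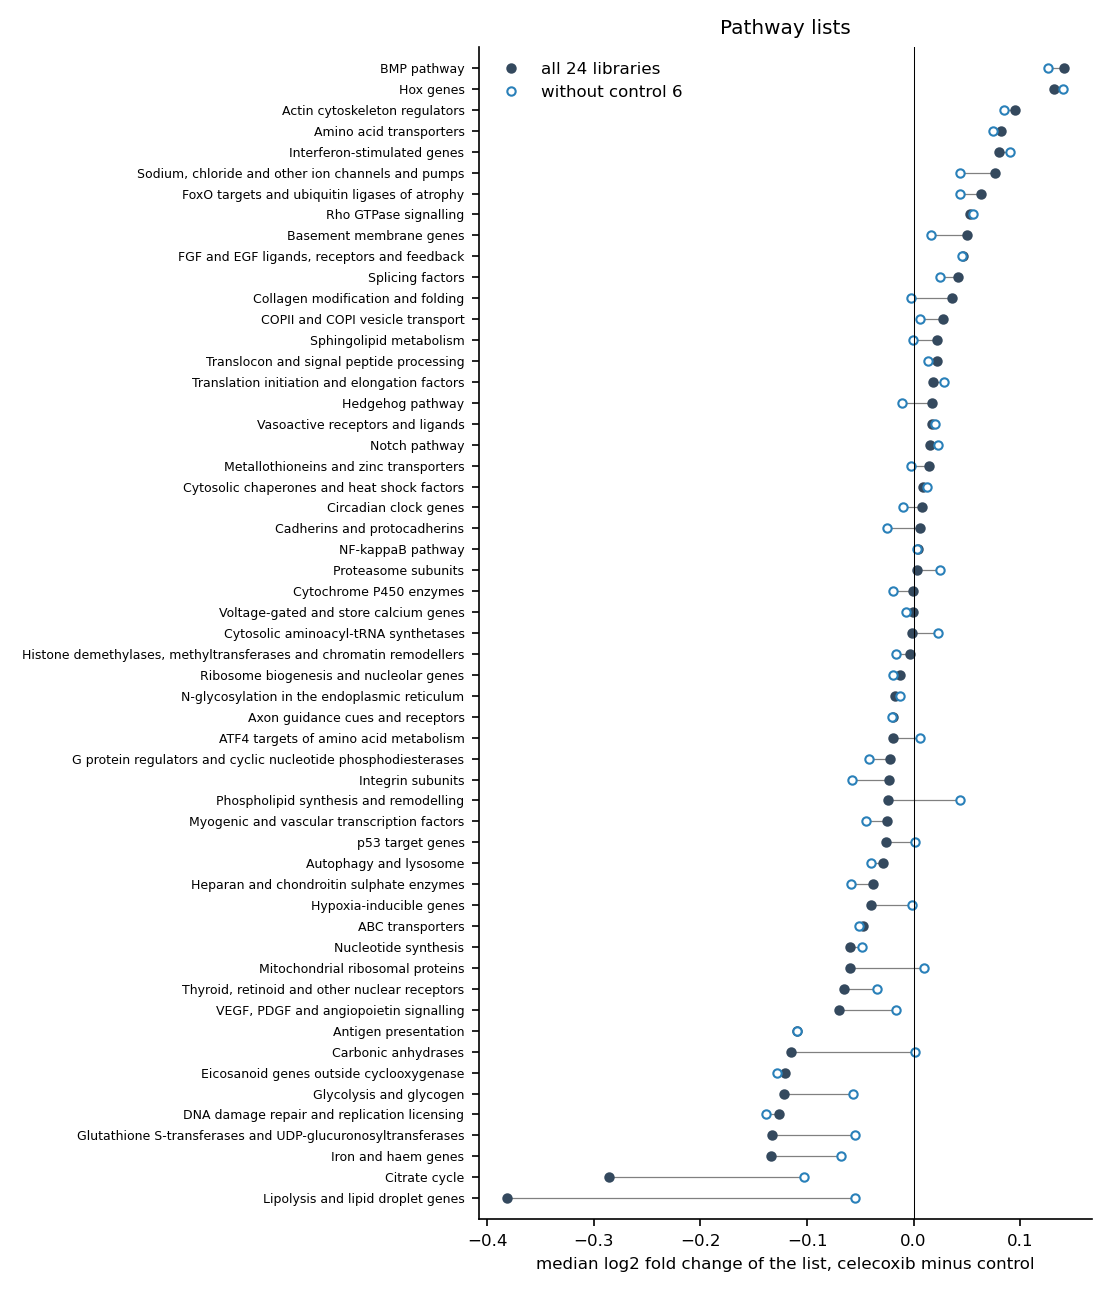
Median log2 fold change of celecoxib against control (horizontal axis) for each of 55 pathway lists (vertical axis), with all 24 libraries (filled) and without control 6 (open). The lists of lipid droplet, citrate cycle and carbonic anhydrase genes move toward 0 without control 6, and the BMP and Hox lists stay near 0.14.

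Calls were spread over the genome and over gene types. Of 13336 protein-coding genes tested 122 were called higher and 70 lower (1.44%). Of 97 long intergenic noncoding RNAs 1 was called higher and 1 lower, and of 191 antisense RNAs 3 were called higher and none lower (1.57%). None of 203 processed pseudogenes was called. On the autosomes the share called ran from 0.665% on chromosome 16 to 2.27% on chromosome 14, and on chromosome X it was 0.787%. The sources used here do not say whether counting used strand, so reads of an antisense RNA and its partner could not be told apart.

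Some of the named genes are given for rofecoxib from the same fit, against the same control libraries and at another dose, so the values are set side by side and not compared. Maff was at 0.11 ± 0.07 (edgeR adjusted p = 0.314) with rofecoxib, Mxd4 at -0.04 ± 0.05 (edgeR adjusted p = 0.594) and Map3k6 at -0.16 ± 0.12 (edgeR adjusted p = 0.38). Il17b was at -0.02 ± 0.12, Stc2 at -0.03 ± 0.15 and Arrdc2 at 0.23 ± 0.22, none of them called. With rofecoxib, where 5.3% of genes tested were called, Csrp1 was called at 0.24 ± 0.07 (edgeR adjusted p = 0.0449), as was Stx3 at 0.20 ± 0.05 (edgeR adjusted p = 0.0385). Fbxl22 at 0.32 ± 0.09 (edgeR adjusted p = 0.0458) and Anxa5 at 0.15 ± 0.03 (edgeR adjusted p = 0.0119) were called too. Of the genes lower with celecoxib, Igfbp5 was at -0.42 ± 0.09 (edgeR adjusted p = 0.0154) and Ccdc85a at -0.31 ± 0.08 (edgeR adjusted p = 0.0323) with rofecoxib, both called. D0H4S114 was at -0.08 ± 0.09, Kcns3 at -0.08 ± 0.08, Ddo at -0.04 ± 0.08 and Pipox at 0.11 ± 0.11, none of them called. Angptl2 at -0.24 ± 0.08 and Cxcl12 at -0.26 ± 0.09 were not called either.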

How the data were processed

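PolyA RNA of thoracic aorta was sequenced from TruSeq libraries, per the labels' protocols. CASAVA 1.8.2, STAR 2.5.1b and the mm9 build are named in the submitters' processing notes. The sources used here do not name the counting tool or the annotation. The authors deposited whole-number counts for 25941 genes, with nearly equal library totals, and the step that equalised them is unknown. If counts had been scaled and rounded, the spread edgeR assumes would not hold.

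Counts of all 24 libraries were filtered with filterByExpr, scaled with TMM (0.959 to 1.02 in the 16 libraries) and tested with edgeR 4.0.16 (R 4.3.3) by its quasi-likelihood F test with 1 mean per group and Benjamini-Hochberg adjustment over all genes tested, then again without control 6. Fold changes are log2, celecoxib minus control, ± SE (the absolute value over the root of F). The procedure was also run on simulated counts, drawn independently for each library from the fitted spread. That simulation held no odd library such as control 6, and its outcome is not used here. Libraries of a group differed well beyond sampling noise, with a mean chi-square per gene of at least 11.0 for each pair.

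The comparison, the lists and the alternatives were chosen with earlier results of these data known. Genes already described for the series were set aside. The rule named, per direction, the 12 smallest p among genes called in both fits, the 6 largest changes, up to 4 called members per list, and 5 genes called in only 1 fit. Of these, 2 genes are not reported here. Some of the uncalled list members with the smallest p are given as values. Further genes were named after their values were seen: Rbm38, Bcl2l1, Csrp1, Tpm2, Tpm4, Myom1, Mcam, Galntl2, Nptx2, Nov, Stx5a, Anxa3, Anxa5, Fam107a, Sult1a1, Slc25a27, Slc25a34, Meg3, Cxcl12, Dkk3, Ncam1, Grb14, Adcy7, Nqo2, Aox1, Sirt5, Lonp2, Acly, Acss2 and Fst. GC content came from GENCODE M21 for 97.4% of genes tested, and promoters from RefSeq for 75.8%.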

Additional observations from a re-analysis of the deposited data

Results flagged for a closer look

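In each group of 8 libraries, the gap between the most extreme library and its nearest neighbour was set against the whole range of the group. Chance flags about 1 in 20 groups, so some of the following are expected. Control 6 was the highest control for Entpd4 at 99.5 CPM, Ogdhl at 0.819 CPM, Acly at 536 CPM, Acss2 at 111 CPM, Car13 at 12.0 CPM, Idh1 at 104 CPM and Plin2 at 212 CPM. It was the lowest control for Dkk3 at 475 CPM and Adcy7 at 266 CPM. Its summed markers were also the highest of the controls for brown adipocytes (1662 CPM), Schwann cells (712 CPM) and neurons (235 CPM), though celecoxib 7 (383 CPM) and celecoxib 3 (286 CPM) held more of the neuron markers.

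Celecoxib 7 was highest for Schwann cell markers (782 CPM) and T cell markers (3.84 CPM). Celecoxib 2 was highest for B cell markers (83.0 CPM) and lymphatic endothelial markers (101 CPM), celecoxib 4 for Anxa3 (219.9 CPM) and neutrophil markers (6.06 CPM), and celecoxib 6 for red cell and platelet markers (585 CPM). Celecoxib 1 was lowest for Rbm38 at 10.7 CPM. Control 5 was highest for Adra1b at 4.5 CPM, control 2 for Aox1 at 88.2 CPM and control 3 for cardiac muscle markers at 104.2 CPM, and control 1 was lowest for skeletal muscle markers at 7.94 CPM.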

How the results depend on the processing

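With all 24 libraries 204 genes were called, 132 higher and 72 lower. DESeq2 called 479 (286 higher and 193 lower), and 663 without control 6 against 264 in edgeR. With no filter on low counts, which adjusts over more genes, the count was 86 (59 and 27), and in the fit on the celecoxib and control libraries alone, which has fewer samples, 88 (63 and 25). Left out together, control 6 and rofecoxib 2 gave 231 (116 and 115), and control 6 and celecoxib 7, chosen after seeing the data, gave 149 (84 and 65). Library totals in place of TMM gave 183, with 54.6% of calls higher against 64.7% with TMM. With 1 library left out the count ran from 42 without celecoxib 5 to 312 without celecoxib 2, the calls higher from 28 to 215 and the calls lower from 14 to 130. The fits that moved the count by over 1.5 times left out celecoxib 2 (312), 3 (93), 4 (57), 5 (42), 7 (135) or 8 (73), control 1 (96), 2 (64), 3 (68), 4 (116), 7 (109) or 8 (113), or rofecoxib 3 (135). Without control 6 and 1 further library it ran from 80 without control 3 to 515 without celecoxib 1. The cause of these shifts was not tested, except where the construction gives it.

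The replicate block, a fit with the labels' replicate number as a factor, called 187 genes, 121 higher and 66 lower. Same-numbered libraries correlated in their deviations at -0.372 to 0.324, and 1 of 8 celecoxib libraries matched its own number best. Whether the numbers mark a shared step was not tested. GC correction gave 240 calls, and 250 with the block. Size factors of DESeq2 gave 195 and a filter of 1 CPM in 8 libraries 227. No named gene that was called changed sign under any of these alternatives, but of 79 such genes 41 lost the call in the fit on the celecoxib and control libraries alone, 37 with no filter, 16 with the replicate block, 13 with GC correction, 9 without control 6 and up to 53 with another library left out. Genes near 1 CPM, such as Ogdhl and Mastl, rest on few counts per library, so counting error is largest for them.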
